A study of Mus musculus with 6 samples.

Results

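The Slit and Robo guidance genes described here are 9 genes: the ligands Slit1, Slit2 and Slit3, the receptors Robo1, Robo2 and Robo3, and the receptor adaptors Srgap1, Srgap2 and Srgap3. They were taken by symbol from a table of read counts for 24421 genes, and all 9 have a row there. The libraries come from primary neural stem cells of E13.5 mouse embryos, cultured as neurospheres, which are floating balls of dividing progenitors, in medium with 20 ng/ml epidermal growth factor and 20 ng/ml fibroblast growth factor 2 at 20% oxygen, and lysed 4 days after dissociation. The groups are WT, with 3 libraries, and PML knockout, with 3 libraries, written Pml-/- in the series design and called the knockout below. The labels give neither the deleted part of Pml nor whether the replicates are separate cultures or embryos, so all p-values rest on the spread among these 6 libraries, part or all of which may be technical.

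Slit proteins are large secreted ligands, and Robo1 and Robo2 are their main cell surface receptors. Slit binding to Robo repels growing axons and migrating neurons, and in the embryonic forebrain Robo signalling also acts in dividing progenitors of the ventricular zone. The Srgap proteins bind the inner tail of Robo receptors, bend membranes through an F-BAR domain and switch off small GTPases that control the cytoskeleton. The PML protein, which builds nuclear bodies, has been linked to the control of Slit genes in neural cells. That link is why the genes were chosen, and of the Slit genes only Slit1 had enough reads to be tested.

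Of the 9 genes, 6 had enough reads to be tested (Slit1, Robo1, Robo2, Srgap1, Srgap2 and Srgap3), and all 6 were tested in a fit over 11317 genes. None of the 6 passed an adjusted p of 0.05 by edgeR's quasi-likelihood test, where 0.00884% of all tested genes passed. DESeq2, edgeR's exact test and limma voom also called 0 of the 6, against 2.9%, 3.17% and 0% of all tested genes. At an unadjusted p under 0.05 there were 2, Robo1 and Srgap1, both higher in the knockout, where 6.7% of tested genes were higher at that level. The same 2 genes had WT and knockout libraries that did not overlap, as did 12.3% of tested genes on the higher side. Slit2 and Robo3 had too few reads for the test, and Slit3 had none.

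The RefSeq sequences before the start sites of Robo1 and Srgap1 are shown because these were the 2 members whose groups separated. Each runs 5′ to 3′ over the 250 bases before the RefSeq start on GRCm38.p6, on the gene's own strand, with CG dinucleotides in capitals. RefSeq windows were found for 8 of the 9 genes.
Robo1, plus strand, chr16:72662899-72663148: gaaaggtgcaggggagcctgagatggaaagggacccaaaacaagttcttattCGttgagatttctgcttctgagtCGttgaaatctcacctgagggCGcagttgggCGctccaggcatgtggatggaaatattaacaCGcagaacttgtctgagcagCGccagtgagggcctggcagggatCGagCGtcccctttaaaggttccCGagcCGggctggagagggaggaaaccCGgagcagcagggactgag
Srgap1, minus strand, chr10:122047316-122047565: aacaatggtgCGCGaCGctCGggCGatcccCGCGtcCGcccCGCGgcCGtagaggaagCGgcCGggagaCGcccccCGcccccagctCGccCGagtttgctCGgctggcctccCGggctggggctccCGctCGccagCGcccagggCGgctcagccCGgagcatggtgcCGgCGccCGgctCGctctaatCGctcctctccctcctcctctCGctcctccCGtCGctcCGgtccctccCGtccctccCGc
The Srgap1 window holds 35 CG dinucleotides, a number reached by 2.97% of 32851 such windows over all genes. The window of Slit3, the member without reads, also holds 35. The Robo1 window holds 11, a number reached by 35.6%, and the median window holds 6. The GC box GGGCGG, searched on both strands, is in the Srgap1 window and not in the Robo1 window, and 32.7% of all windows hold it. The windows of Slit2, Slit3, Robo3, Srgap2 and Srgap3 hold it too. TATAAA, searched on both strands, is in neither the Robo1 nor the Srgap1 window and in 12.4% of all windows. The Robo1 window lies inside the GENCODE gene, because longer transcripts start upstream of it, and it overlaps no annotated exon of Robo1.

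Total counts ran from 1775152 to 5917505 per library. WT replicates 1 and 2 stood apart: Rn45s, the row of 45S pre-ribosomal RNA, held 41.9% and 39.8% of their counts, against 14.6% to 19.6% in the other libraries. Transcripts of 16 hepatocyte genes summed to 546, 851 and 167 CPM (counts per 1000000, scaled with library factors) in WT replicates 1, 2 and 3 and to 110, 78.0 and 93.5 in the knockout libraries, and no gene of that list was at 0 everywhere. The 8 neural stem cell markers, among them Sox2, Vim and Nes, summed to 5511 to 8117 CPM in every library, while Msi1 was under the count filter. Single markers varied more than this sum. Fabp7 stood at 352, 73.5 and 708 CPM in WT replicates 1, 2 and 3, against 689, 2132 and 1547 CPM in those of the knockout. Nes stood at 276, 110 and 393 CPM in WT, against 205, 171 and 193 CPM in the knockout. Of the 7 markers tested, 4 had positive log2 fold changes. Pml had 36, 35 and 44 reads in WT replicates 1, 2 and 3, against 14, 23 and 5 in those of the knockout, with no overlap in CPM (log2 fold change -2.81, SE 0.661, edgeR quasi-likelihood adjusted p 0.197, DESeq2 adjusted p 0.00341).

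Among the ligands, Slit1, a Slit made mainly in the nervous system (chromosome 19, 41600257 to 41743665, minus strand, GENCODE M21 on GRCm38, as for all positions below), supplied most Slit reads in 4 of the 6 libraries. It had 29, 4 and 5 reads in WT replicates 1, 2 and 3, against 57, 32 and 44 in those of the knockout. These are 8.63, 3.20 and 1.13 CPM in WT and 8.58, 5.28 and 6.56 CPM in the knockout. WT replicate 1 was level with the highest knockout library, and the other WT libraries were below every knockout library. The means were 4.32 ± 3.87 and 6.81 ± 1.66 CPM (SD, n = 3 each). The log2 fold change of 0.64 (SE 0.671, 95% interval -0.86 to 2.13) did not pass by edgeR's quasi-likelihood test (adjusted p 0.655). It was 1.89 without WT replicate 1 (edgeR adjusted p 0.447), 0.10 without WT replicate 3 (0.920) and 2.56 without WT replicates 1 and 2. Leaving out both keeps 1 WT library, with 5 Slit1 reads, so only the fold change is given for that fit here and below.

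Slit2, the Slit best known from midline guidance (chromosome 5, 47983138 to 48307733, plus strand), was near the limit of detection. It was read 5, 4 and 7 times in WT replicates 1, 2 and 3, against 2, 11 and 3 times in the same knockout replicates. That gives 1.49, 3.20 and 1.59 CPM in WT and 0.301, 1.81 and 0.448 CPM in the knockout. Knockout replicates 1 and 3 were below all WT libraries, and knockout replicate 2 was inside the WT range, so the groups overlapped. The reads summed to 16 in each genotype. Scaled by depth and library factors, the summed knockout level was 0.464 of the WT level (exact 95% interval 0.217 to 0.992, counting error only). The factors were 0.763, 0.707 and 1.12 in WT replicates 1, 2 and 3 and 1.13, 1.22 and 1.20 in those of the knockout. That interval moves with these factors and holds no spread between libraries. In a fit with no count filter the log2 fold change was -1.15 (SE 1.06, edgeR adjusted p 0.634). Slit3 (chromosome 11, 35121224 to 35708507, plus strand) had 0 reads in all 6 libraries, which allows up to 0.106 CPM over the 6 together (3 counts), for counting error only.

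**Figure D1:**
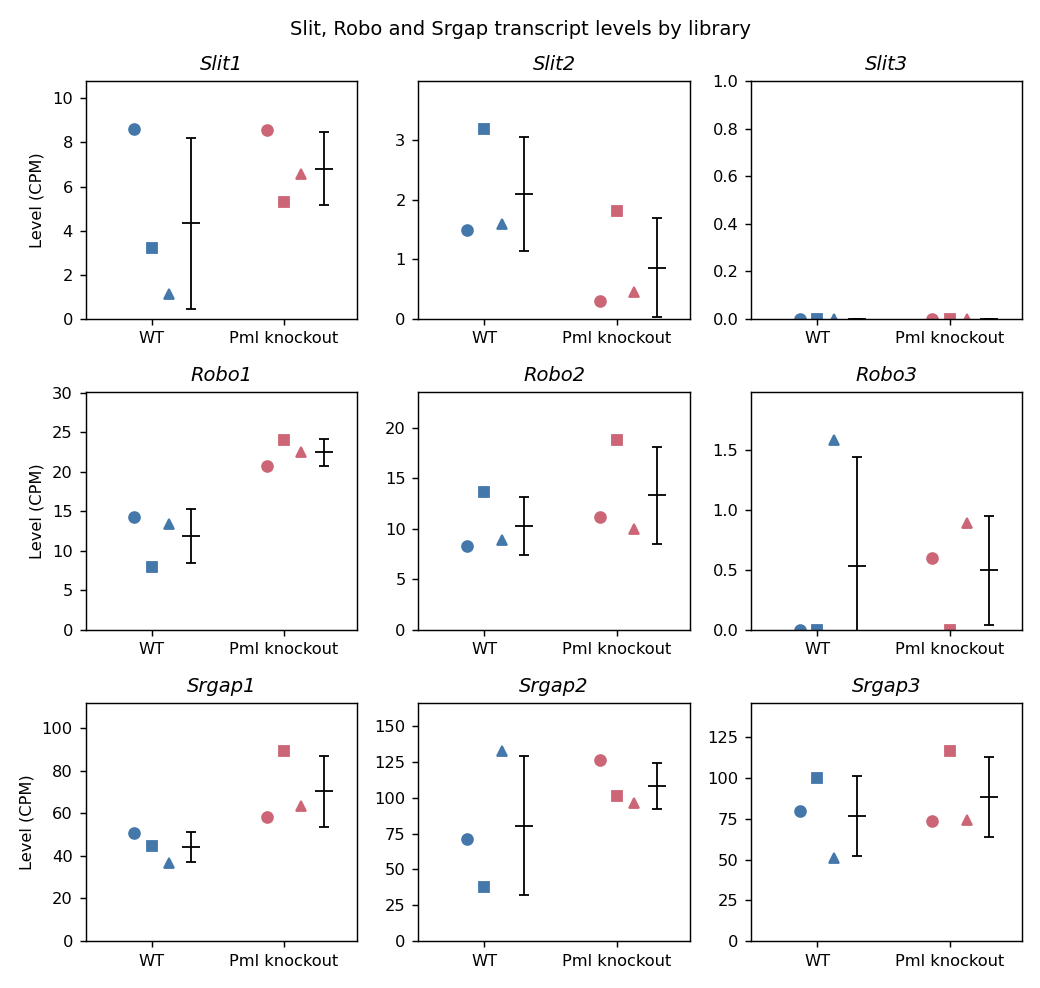
Level of each of the 9 genes in CPM (vertical axes, each from 0) in WT (blue) and Pml knockout (red) libraries; circles, squares and triangles are replicates 1, 2 and 3, and black bars are mean ± SD (n = 3), clipped at 0. Robo1 and Srgap1 are the panels where all knockout points lie above all WT points, and Slit3 is at 0 throughout.

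Within the Slit family, where shares do not depend on library scaling, Slit1 made up 85.3% of Slit reads in WT replicate 1 (exact Clopper-Pearson 95% interval 68.9 to 95.0, of 34 reads). It made up 50.0% in WT replicate 2 (15.7 to 84.3, of 8 reads) and 41.7% in WT replicate 3 (15.2 to 72.3, of 12 reads). In knockout replicates 1, 2 and 3 it made up 96.6% (88.3 to 99.6, of 59 reads), 74.4% (58.8 to 86.5, of 43 reads) and 93.6% (82.5 to 98.7, of 47 reads). Slit2 supplied the remainder in each. WT replicate 1 lay among the knockout libraries in this share, so the genotypes overlapped. Slit reads summed to 10.1, 6.40 and 2.72 CPM in the WT libraries and 8.88, 7.09 and 7.01 CPM in the knockout libraries.

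Among the receptors, Robo1 was the member with the smallest p. Robo1 is a main Slit receptor of the forebrain and lies on chromosome 16, 72308306 to 73046095, plus strand. It was read 48, 10 and 59 times in WT replicates 1, 2 and 3, against 138, 146 and 151 times in the same knockout replicates. These are 14.3, 7.99 and 13.4 CPM in WT and 20.8, 24.1 and 22.5 CPM in the knockout. Every knockout library was above every WT library, and the WT libraries were spread more widely. The means were 11.9 ± 3.40 and 22.5 ± 1.66 CPM (SD, n = 3 each), a ratio of 1.89. The log2 fold change was 0.88 (SE 0.340, 95% interval 0.12 to 1.63), with an unadjusted p of 0.0269 and an adjusted p of 0.261 by edgeR's quasi-likelihood test, so Robo1 did not pass. Without WT replicates 1 and 2, the libraries with the high Rn45s and hepatocyte values given above, it was 0.74. The authors' deposited table gives 0.89 with an adjusted p of 0.187, where 2.94% of its 12349 tested genes were under 0.05.

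Robo2, the other main Slit receptor (chromosome 16, 73891839 to 74411825, minus strand), had 28, 17 and 39 reads in WT replicates 1, 2 and 3, against 74, 114 and 67 in those of the knockout. Its levels were 8.33, 13.6 and 8.85 CPM in WT and 11.1, 18.8 and 9.99 CPM in the knockout. Replicate 2 was the highest library in each genotype, and the groups overlapped. The log2 fold change was 0.41 (SE 0.417, 95% interval -0.51 to 1.34, edgeR adjusted p 0.642). It was 0.08 without knockout replicate 2 and 0.58 without WT replicates 1 and 2. Robo3, a receptor of commissural axons that cross the midline (chromosome 9, 37415669 to 37433246, minus strand), had 0, 0 and 7 reads in WT replicates 1, 2 and 3, against 4, 0 and 6 in those of the knockout. It was detected in WT replicate 3 and knockout replicates 1 and 3 and lay at or near the detection limit in all libraries, where 3 counts are worth 0.447 to 2.40 CPM. Its summed knockout level, scaled as for Slit2, was 0.663 of WT (exact 95% interval 0.228 to 2.05, counting error only).

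Robo1 held 63.2%, 37.0% and 56.2% of Robo family reads in WT replicates 1, 2 and 3. It held 63.9%, 56.2% and 67.4% in knockout replicates 1, 2 and 3. WT replicate 2, with 27 Robo reads in all, was the low value (exact 95% interval 19.4 to 57.6), and the genotypes overlapped. The summed Robo level was 22.6, 21.6 and 23.8 CPM in WT and 32.5, 42.9 and 33.4 CPM in the knockout. All 3 knockout sums were above the WT sums. Robo1, which is part of these sums, separated alone, as did 12.3% of tested genes on the higher side, while Robo2 alone overlapped.

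**Figure D2:**
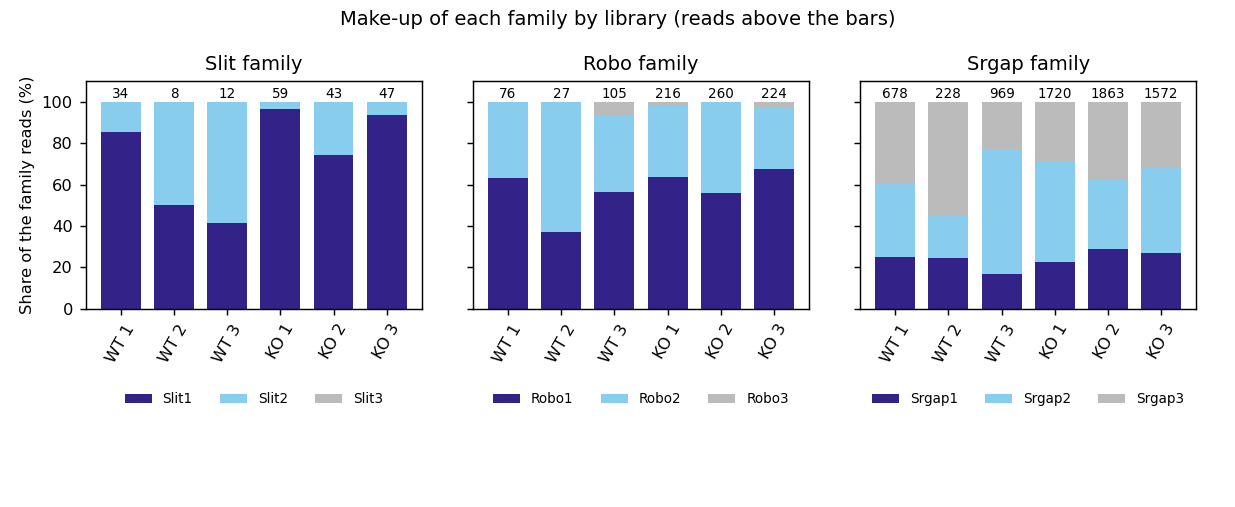
Share of each family's reads (vertical axis, percent) held by its 3 genes in each library, with the family's read number above each bar; KO is the Pml knockout. Slit1 ranges from 41.7% to 96.6%, Robo1 from 37.0% to 67.4% and Srgap2 from 20.6% to 60.4% of their families.

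Among the adaptors, Srgap1, which acts on Cdc42 in Slit signalling (chromosome 10, 121780991 to 122047315, minus strand), was the other member with separated groups. It had 170, 56 and 161 reads in WT replicates 1, 2 and 3, against 387, 542 and 426 in those of the knockout. These are 50.6, 44.8 and 36.5 CPM in WT and 58.2, 89.4 and 63.5 CPM in the knockout. The lowest knockout library was above the highest WT library, and knockout replicate 2 stood apart above the other knockout libraries. The means were 44.0 ± 7.06 and 70.4 ± 16.7 CPM (SD, n = 3 each), a ratio of 1.60. The log2 fold change was 0.68 (SE 0.287, 95% interval 0.04 to 1.32), with an unadjusted p of 0.0388 and an edgeR quasi-likelihood adjusted p of 0.293, so Srgap1 did not pass. Without WT replicates 1 and 2 it was 0.94, and without knockout replicate 2 it was 0.48 (edgeR adjusted p 0.751).

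Srgap2, known for inducing filopodia and for acting in neuronal migration and spine maturation (chromosome 1, 131285251 to 131527352, minus strand), was the member with the highest mean level. It was read 240, 47 and 585 times in WT replicates 1, 2 and 3, against 842, 613 and 647 times in the same knockout replicates. The levels were 71.4, 37.6 and 133 CPM in WT and 127, 101 and 96.5 CPM in the knockout. The highest and the lowest library were both WT. The log2 fold change of 0.41 (SE 0.399, 95% interval -0.48 to 1.29, edgeR adjusted p 0.633) was 0.97 without WT replicate 3 (adjusted p 0.0688) and 0.08 without WT replicate 2. It changed sign to -0.30 without WT replicates 1 and 2.

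Srgap3, also called WRP and a regulator of Rac1 (chromosome 6, 112717971 to 112947266, minus strand), had 268, 125 and 223 reads in WT replicates 1, 2 and 3, against 491, 708 and 499 in those of the knockout. Its levels were 79.8, 99.9 and 50.6 CPM in WT and 73.9, 117 and 74.4 CPM in the knockout. Replicate 2 was the highest library in each genotype, and the groups overlapped. The log2 fold change was 0.21 (SE 0.325, 95% interval -0.51 to 0.94, edgeR adjusted p 0.764), the smallest of the 6. Without WT replicates 1 and 2 it was 0.80, and it was close to 0 without WT replicate 3 (-0.0036) or knockout replicate 2 (-0.034).

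The make-up of the Srgap family varied most between WT libraries. Srgap2 held 35.4% of Srgap reads in WT replicate 1 (exact 95% interval 31.8 to 39.1), 20.6% in WT replicate 2 (15.6 to 26.5) and 60.4% in WT replicate 3 (57.2 to 63.5). It held 49.0%, 32.9% and 41.2% in knockout replicates 1, 2 and 3, inside the WT range. The counting intervals of the 3 WT libraries did not overlap each other. The summed Srgap level was 202, 182 and 220 CPM in WT and 259, 307 and 234 CPM in the knockout.

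**Figure D3:**
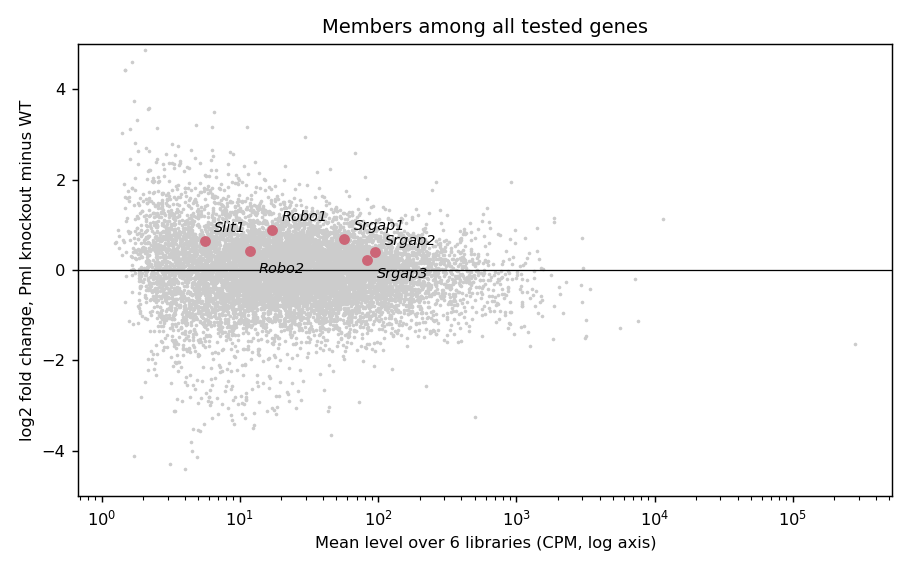
Log2 fold change of the knockout over WT (vertical axis) against mean level over the 6 libraries in CPM (log axis) for 11317 tested genes (grey) and the 6 tested members (red). All 6 members lie above 0, between 0.21 and 0.88, inside the cloud of all genes.

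The 6 tested members had positive log2 fold changes, with a median of 0.53. Over all tested genes, 49.7% were positive and the median was -0.01. These 6 are those that passed the count filter, and the untested Slit2 and Robo3 lay the other way, at -1.15 (SE 1.06) and -0.32 (SE 1.45) in the fit with no count filter. When libraries were scaled by their totals alone, the median of all tested genes moved to 0.43, and Robo1 and Srgap1 had log2 fold changes of 1.30 and 1.17. The 6 stayed positive under each of the scalings tried, but these could hardly turn a sign. With DESeq2's size factors the median of all tested genes was -0.02, while the smallest member value in the main fit was 0.21. Totals alone moved the median upward. With libraries left out, Srgap2 and Srgap3 did turn negative in some fits.

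**Figure D4:**
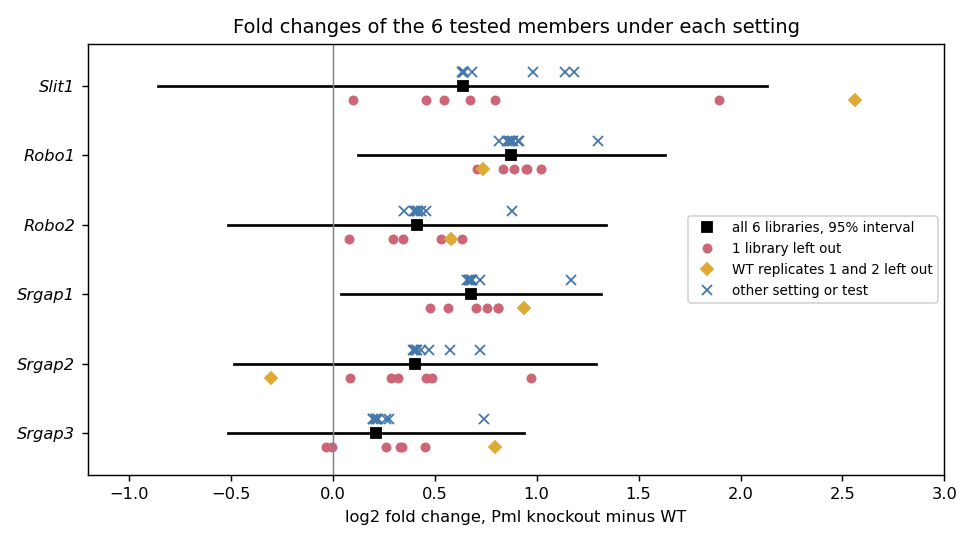
Log2 fold change of the knockout over WT (horizontal axis) for the 6 tested members; black squares and lines are the estimate and 95% interval from all 6 libraries, and other marks are the estimates with libraries left out or under other settings and tests. Robo1 stays between 0.71 and 1.30, whereas Slit1 ranges from 0.10 to 2.56 and Srgap2 from -0.30 to 0.97.

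Since 3′ tags give about the same number of reads per transcript whatever its length, CPM can be set side by side between genes, though the place of the annotated end also matters. A poly(A) signal (AATAAA or ATTAAA) lies in the last 40 bases of the longest GENCODE coding transcript for 7 of the 9 genes and for 70.0% of all genes. Srgap2 and Robo3 are those without it. The genes annotated inside members that have a row of their own are Mir218-1 in Slit2, Mir218-2 in Slit3 and Mir691 in Robo2, each at 0 reads. In WT the order of mean levels was Srgap2 (80.6 CPM), Srgap3 (76.8), Srgap1 (44.0), Robo1 (11.9), Robo2 (10.3), Slit1 (4.32), Slit2 (2.09), Robo3 (0.530) and Slit3 (0). Neighbours in this order overlapped in their libraries except Srgap3 with Srgap1, by a narrow gap, and Srgap1 with Robo1. The knockout order was the same, and there Srgap1, Robo1, Robo2 and Slit1 were each separated from the next gene down. The adaptors were thus 7.02 to 9.23 times the summed receptors in every library, and the receptors 2.24 to 8.75 times the summed ligands. The 2.24 was in WT replicate 1, with 34 Slit reads. The 8.75 was in WT replicate 3, with 12 Slit reads, so its counting error is large. Among all tested genes Srgap2 stood at the 85.0th percentile of mean level, Srgap1 at the 74.6th, Robo1 at the 41.4th and Slit1 at the 14.9th. Fewer cells that make a transcript and less of it per cell cannot be told apart in these bulk libraries.

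Other genes that bind or relay Slit and Robo were read from a list of 27, of which 25 were tested. By edgeR's quasi-likelihood and exact tests, DESeq2 and limma voom 0 passed in either direction. In the quasi-likelihood fit, 4 were higher and 1 lower with an unadjusted p under 0.05, where 6.7% and 9.19% of tested genes were. The median log2 fold change of the 25 was 0.04, with 14 positive. The lower gene was Gpc1, glypican-1, a heparan sulfate proteoglycan that binds Slit. It stood at 128, 151 and 107 CPM in the WT libraries, against 80.0, 66.1 and 68.8 CPM with Pml knocked out (log2 fold change -0.84, SE 0.255, edgeR adjusted p 0.220). The groups did not overlap, as for 11.3% of tested genes on the lower side.

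Pak3, a kinase driven by Rac and Cdc42, had the smallest p on the list. Its levels were 31.3, 34.4 and 50.2 CPM in WT and 57.2, 131 and 83.8 CPM in the knockout (log2 fold change 1.22, SE 0.356, edgeR adjusted p 0.220). The groups did not overlap, as for 12.3% of tested genes on the higher side and for other genes of the list. Dcc, the netrin receptor whose attraction Robo1 can silence, stood at 9.23, 3.20 and 19.3 CPM in the WT libraries, against 19.3, 44.7 and 23.1 CPM with Pml knocked out (log2 fold change 1.35, SE 0.542, edgeR adjusted p 0.272). The highest WT library and the lowest knockout library of Dcc were level. Robo4, the endothelial Robo, had 11 reads in WT replicate 1, 1 read in knockout replicate 3 and 0 in the others. The endothelial list of 7 genes, which includes Robo4, summed to 4.54 to 15.8 CPM in WT and 10.7 to 15.9 CPM in the knockout, with Cdh5, Tek and Cldn5 at 0 everywhere.

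The genes whose log2 CPM followed Robo1 most closely over the 6 libraries, among 9827 with at least 5 CPM, were Grid1, Pdpk1, Npas3, Rab2b and Traf6, with Pearson's r from 0.991 to 0.996. Grid1, a glutamate receptor delta subunit, had a WT mean of 3.22 ± 2.12 CPM and a knockout mean of 12.2 ± 1.75 CPM (SD, n = 3 each). Npas3, a bHLH-PAS transcription factor, had 151 ± 44.9 and 259 ± 21.2 CPM. Neither passed by edgeR's quasi-likelihood test (adjusted p 0.220 for Grid1 and 0.247 for Npas3). Grid1 had 16, 1 and 18 reads in WT replicates 1, 2 and 3. Since r covers both genotypes, genes picked by it carry the difference of Robo1 between them, and these means are no separate result. The genes closest to Srgap2 were G2e3, Smc6, Kifap3, Nol7 and Cenpq, with r from 0.993 to 0.998. The 6 libraries differ in depth and in Rn45s share, which all of these genes share, so r is given as a description.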

How the data were processed

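RNA with an integrity number above 7 was made into 3′ tag libraries (QuantSeq forward) with 20 to 24 PCR cycles, per the labels' protocols, and the labels give 1 batch for all. HISAT2, HTSeq, edgeR, FastQC and the mm10 build are named in the submitters' processing notes. Their versions, the annotation and the strand setting were not given in the sources used here, so reads of overlapping genes cannot be told apart. The authors' deposited whole-number read counts per gene were analysed. The authors also deposited rounded normalized counts (treated as a score) and their mean (a signal), neither used here. The authors' deposited fold changes (a ratio, and as log2) and p-values were used only where named. Per-sample columns left without a sample numbered 0.

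In R 4.3.3, edgeR 4.0.16's default filter (count minimum 10, total 15) kept 11317 genes. The test was the robust quasi-likelihood F test, knockout against WT, two-sided, with trimmed mean factors and Benjamini-Hochberg adjustment over all tested genes. SE is the log2 fold change divided by the square root of F. Alternatives used DESeq2 1.42.0, limma 3.58.1, other scalings and filters, a replicate block, and libraries left out. The fit was tested on simulated data drawn from the observed means and dispersions (11150 genes). The changed genes were drawn from those with a mean of at least 5 CPM, and Slit1, at 5.56 CPM, lay just above that. The fit recovered 74% of 50 genes raised 4-fold, 42% of 50 lowered 4-fold, 8% of 50 raised 2-fold and 2% of 50 lowered 2-fold. Reads carry no stated molecular identifiers, so intervals and limits cover counting error only.

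Members and lists were chosen with earlier results of these data known. Named genes are the members, Pml, the 3 partners with the smallest p, and the 5 genes most correlated with the member of smallest p and with that of highest level. Robo4 and the marker genes printed were added after their values were seen. The 8 marker lists had 0 members past the threshold by edgeR's quasi-likelihood test and by limma voom. Genes tested numbered 7 neural stem cell, 6 neuron, 3 floor plate, 2 endothelial, 2 mesenchymal and 15 hepatocyte. No microglia or red blood cell gene was tested, so those lists could not pass. Microglia genes summed to 23.2 CPM in WT replicate 2 and to 0 to 1.50 CPM in the other libraries. DESeq2 and edgeR's exact test each called 12 hepatocyte genes, 1 neuron gene and 1 floor plate gene lower. Over all tested genes they called 2.9% and 3.17% in either direction. At an unadjusted p under 0.05 (quasi-likelihood test), 15 of 15 hepatocyte genes were lower. So were 1 of 6 neuron genes and 1 of 3 floor plate genes. On the higher side were 1 of 7 stem cell genes and 1 of 3 floor plate genes. Over all tested genes, 9.19% were lower and 6.7% higher at that level.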

Additional observations from a re-analysis of the deposited data

How the results depend on the processing

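No tested member passed the threshold under any of the 16 alternatives. Of the 6, Slit1, Robo1, Robo2 and Srgap1 kept a positive log2 fold change in all 16. Srgap2 turned to -0.30 without WT replicates 1 and 2. Srgap3 lay between -0.034 and 0.45 with single libraries left out, turning negative on leaving out WT replicate 3 (-0.0036) or knockout replicate 2 (-0.034). Over all genes, 1 passed higher and 0 lower. The higher count was 0 with DESeq2's size factors, library totals, the Rn45s row removed, a minimum of 5 CPM, and limma voom. Higher and lower counts were 105 and 223 by DESeq2 and 148 and 211 by edgeR's exact test, and the lower count was 2 with no count filter. With single libraries left out the counts ran from 0 to 589 higher and 0 to 937 lower, the top of each without WT replicate 3. Without WT replicates 1 and 2 they were 91 and 51, with the lone WT library assumed to vary like the knockout libraries. The causes were not tested. With the replicate number as a block, 1 gene passed higher and 1 lower, and Robo1 stood at 0.91 (edgeR adjusted p 0.334). Deviations of same-numbered libraries correlated at -0.0025, 0.067 and 0.188, against -0.181 to 0.087 for libraries of different numbers. These few values do not settle whether the numbers are pairs, and the main fit did not pair them. Depth limits Slit2, Slit3 and Robo3, and WT replicate 2, with 1775152 counts, gave 8 Slit and 27 Robo reads.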
